A study of Homo sapiens with 18 samples.

Results

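The comparison was of spheroidal aggregates of U87 mg, an established human glioblastoma line, after 2 h in a direct current electrical field (dcEF) with aggregates that had not been exposed. It took in the 3 libraries at 2 h and the 3 at 0 h, 6 of the 18 RNA-SEQ libraries of the series, and every gene was examined as the sum of its transcripts. The aggregates of both groups were set in a gel of medium and Matrigel, kept for 24 h in an electrotaxis channel and given 0 h or 2 h at 250 V/m, and 3 channels were pooled for each library. Of 4 biological replicates prepared per condition, the study sequenced the 3 with the best quality control, and the p-values below measure the spread between such pools. In bulk RNA, fewer cells of a kind and less RNA per cell cannot be told apart. There is no comparison here with aggregates held unexposed for the same 2 h, and the effect of added time in the channel cannot be told apart from that of the field. The question was which genes a glioblastoma aggregate expresses at another level soon after the field is switched on.

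Cells that sense a new stimulus usually answer first with immediate early genes, whose transcription needs no new protein. Many of them, among them EGR1, are driven by serum response factor and its ERK-activated partners, which bind a short element called the CArG box, and by AP-1, a dimer of JUN and FOS proteins. Slower answers include the target genes of YAP and TAZ, which follow cytoskeletal tension, the heat shock proteins, and stress-regulated brakes on growth such as DDIT4, an inhibitor of mTORC1. Electrotaxis, the migration of cells along a field, has been linked with ERK and PI3K signaling, so the genes of these pathways are given as groups as well.

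The libraries held between 10690206 and 15610886 estimated counts at 0 h and between 8341976 and 10530470 at 2 h. VIM (4160 to 5340 TPM, an abundance scaled for transcript length and library total, over the 6 libraries) and CD44 (2570 to 3550 TPM) were abundant, as they are in mesenchymal glioblastoma lines, while GFAP reached 3.11 TPM, OLIG2 1.4 TPM and SOX2 0.0685 TPM, so these glial markers were nearly absent. MTAP, which lies in a region known to be deleted in U87 mg, reached 0.266 TPM. Of the markers of leukocytes, PTPRC, CD14 and ITGAM reached at most 0.782 TPM and CD3E was listed at 0, while CSF1R read 2.31 to 12.1 TPM and CD68, a lysosomal protein that tumor cells also make, 247 to 602 TPM. Of those of endothelium, PECAM1 reached 2.3 TPM, KDR 2.07 TPM, TEK 1.08 TPM, VWF 0.719 TPM and CDH5 0.182 TPM, and CLDN5 was listed at 0. Of those of neurons, SNAP25 read 18.4 to 31.0 TPM, SYT1 5.06 to 9.27 TPM and GAD1 4.03 to 8.28 TPM, while RBFOX3, SLC17A7 and STMN2 reached at most 0.452 TPM. The part of other cell types in the results was not tested. The 3 libraries at 0 h were not alike. Log2 levels of replicate 0 correlated with those of replicates 1 and 2 at r = 0.962 and 0.97, and with those of the 2 h libraries at r = 0.979 to 0.983, whereas replicates 1 and 2 correlated at r = 0.984. For each library, the log2 level minus the gene's mean over the 9 U87 mg libraries was regressed on GC content, over 10549 genes. The slope, relative to that mean, was -0.24 per 10 points in replicate 0 at 0 h and 0.288 and 0.245 in replicates 1 and 2. It was -0.07, -0.136 and -0.27 in the 2 h libraries. The counts of genes and of list members are therefore also given without this library and after removal of the GC trend from every library, an alternative chosen after the data were seen.

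The promoters of genes named in an earlier account of these data are shown first, because serum response factor and hypoxia signaling are known to act on genes of this kind through short promoter elements. The 250 bases before the start in RefSeq (GRCh38.p14) were found for EGR1, MIR22HG and DDIT4, 3 of the 4 genes looked up, the other being NEAT1. Capitals mark each match on either strand to the CArG box, to ACGTG, the core of the hypoxia response element and of many E-boxes, and to GGGCGG, the GC box. Sequences read 5′ to 3′ on the strand of the gene.
EGR1, chr5:138465229-138465478, plus strand: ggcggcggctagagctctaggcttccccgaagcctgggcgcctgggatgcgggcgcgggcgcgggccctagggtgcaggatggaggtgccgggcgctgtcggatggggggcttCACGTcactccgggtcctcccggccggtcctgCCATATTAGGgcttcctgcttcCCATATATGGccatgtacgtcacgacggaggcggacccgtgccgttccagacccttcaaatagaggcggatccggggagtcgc
MIR22HG, chr17:1716211-1716460, minus strand: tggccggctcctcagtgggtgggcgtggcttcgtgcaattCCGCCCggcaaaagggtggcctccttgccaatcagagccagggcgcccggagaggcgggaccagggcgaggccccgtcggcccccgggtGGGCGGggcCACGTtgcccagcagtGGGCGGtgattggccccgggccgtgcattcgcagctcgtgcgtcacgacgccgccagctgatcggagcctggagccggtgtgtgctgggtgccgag
DDIT4, chr10:72273674-72273923, plus strand: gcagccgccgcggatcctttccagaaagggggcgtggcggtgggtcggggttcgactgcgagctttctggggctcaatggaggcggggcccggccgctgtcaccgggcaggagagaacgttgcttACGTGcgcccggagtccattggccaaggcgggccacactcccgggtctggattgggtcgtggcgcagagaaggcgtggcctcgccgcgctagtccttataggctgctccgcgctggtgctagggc
The EGR1 window held 2 CArG boxes, which begin 105 and 83 bases before the start, and 1.16% of all 35116 windows of this length held at least 1. The same EGR1 window also held 1 ACGTG, on the opposite strand. MIR22HG held 3 GC boxes and 1 ACGTG, and DDIT4 held 1 ACGTG, which begins 125 bases before the start. ACGTG was found in 18.5% of all windows and GGGCGG in 42.6%. Among windows of genes tested here, the shares were 22.4% for ACGTG, 61.7% for GGGCGG and 1.07% for the CArG box. These matches describe the letters and were not tested for binding.

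No gene, summed over its transcripts, was differentially expressed in U87 mg at 2 h at the cutoffs of the study. These criteria were an FDR below 0.05 together with a log2 fold change of 1 or more in either direction. The study applied them to single transcripts with another test, sleuth, and showed U87 mg transcripts that passed at 2 h, so the unit and the test differ here. The quasi-likelihood test of edgeR, adjusted by Benjamini and Hochberg, was run on 14106 genes, and 0 passed (0.0%), and the smallest adjusted p was 0.206. At an unadjusted p under 0.05 there were 1293 genes, 700 higher at 2 h (4.96% of those tested) and 593 lower (4.2%). All 3 libraries at 2 h lay above all 3 at 0 h for 1237 genes (8.77%) and below them for 709 (5.03%). By DESeq2, 4 genes passed an adjusted p below 0.05 (0.0284%), namely NEAT1, DNAJC25-GNG10 and 2 rows named ENSAP2 and AP003419.

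The named genes below are the 15 in each direction with the lowest unadjusted p among those with a log2 fold change of at least 0.58 either way, a mean of at least 5 CPM (counts scaled to the library total) and no overlap between 0 h and 2 h libraries. All 30 had an adjusted p of 0.485. They were picked for their p, so their separation of the groups is a description. Members of gene lists are named where their unadjusted p was under 0.05 or where they define the list. The words higher and lower refer to mean levels, and no gene named here passed an FDR of 0.05 by edgeR in the fit of all 9 U87 mg libraries.

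**Figure D1:**
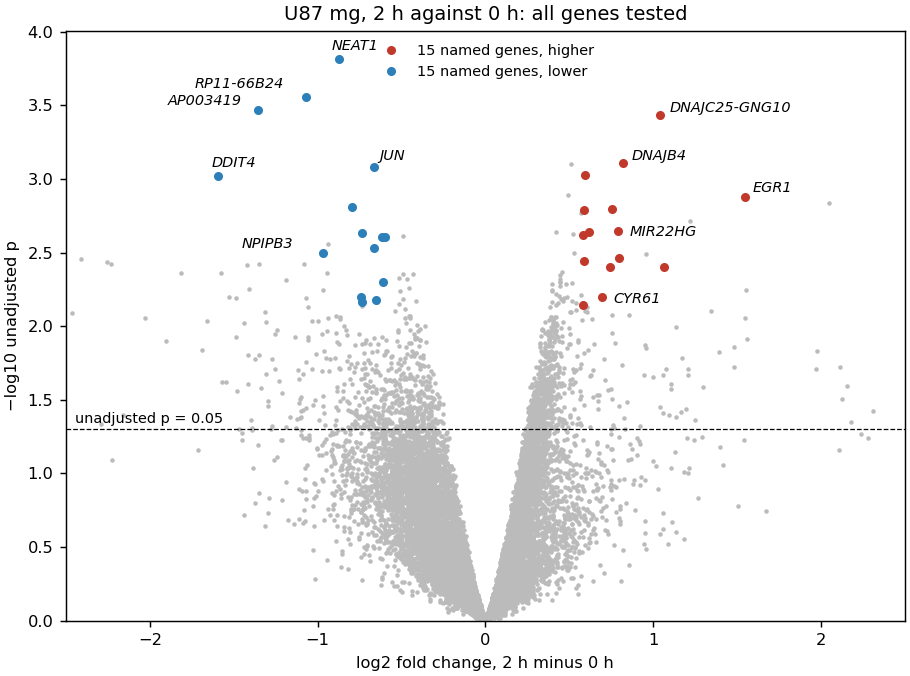
Each point is a gene tested in U87 mg, with its log2 fold change (2 h minus 0 h) on the x axis and −log10 of its unadjusted p on the y axis; red and blue mark the 15 named genes in each direction, the dashed line marks an unadjusted p of 0.05, and 8 of 14106 genes lie beyond the x axis. Among the 30 named genes, EGR1 and DDIT4 had the largest differences (1.55 and -1.59) and NEAT1 the lowest p, and grey points with larger differences are genes outside the rule for naming.

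EGR1 and MIR22HG, both immediate early genes, were the immediate early genes with the lowest p among those higher at 2 h. EGR1 (chr5:138465490-138469315, GRCh38), a zinc finger transcription factor, measured 24.38, 22.64 and 27.98 CPM at 0 h and 74.97, 81.23 and 63.67 CPM at 2 h. The lowest library at 2 h was thus well above the highest at 0 h, and the means were 25.0 ± 2.73 and 73.3 ± 8.9 CPM (SD, n = 3). The log2 fold change was 1.55 ± 0.38 (SE), or 2.93-fold, with an unadjusted p of 0.00133 by edgeR. At 8 h its libraries read 90.2, 27.4 and 120.1 CPM, and replicate 1 at 8 h stood apart from the other two. The spread of the 9 libraries is shared in the fit, and EGR1 passed both criteria when only the 6 libraries compared were fitted (adjusted p = 0.0114) and when replicate 1 at 8 h was left out (adjusted p = 0.00992), with adjusted p-values from 0.00992 to 0.886 over all 24 alternatives. Removal of the GC trend gave a log2 fold change of 1.80.

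MIR22HG (chr17:1711493-1717174), the host transcript of the microRNA miR-22 and itself an early response RNA, had 25.9, 34.0 and 30.4 CPM at 0 h and 43.7, 60.3 and 52.7 CPM at 2 h. The groups did not overlap, and the log2 fold change was 0.79 ± 0.21 (SE). Its transcripts differed in size of change. The 4-exon transcript ENST00000334146, which starts at the base after the promoter window above, had 14.5, 16.8 and 14.0 TPM at 0 h and 30.9, 47.7 and 47.7 TPM at 2 h. The 2-exon transcript ENST00000574306 had 8.41, 13.2 and 11.9 TPM and then 11.6, 14.0 and 10.1 TPM, so its libraries overlapped. The log2 fold changes of these transcripts were 1.44 ± 0.29 and 0.06 ± 0.27 (SE), and whether they differ from each other was not tested. The adjusted p of the 4-exon form was 0.484 by edgeR and 0.0011 by DESeq2, and it ranged from 0.0011 to 0.904 over 10 alternatives.

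The immediate early genes did not move as a block. Of 55 listed, 54 were tested, 5 were higher and 5 lower at an unadjusted p under 0.05, against 4.96% and 4.2% of all genes, and the median log2 fold change was 0.06, against -0.02 for all genes. Besides EGR1 and MIR22HG, the higher members were GEM, a small GTPase of the RGK family (129.6 and 181.4 CPM on average), RHOB, an endosomal small GTPase (14.1 and 21.9 CPM), and the zinc finger factor KLF6 (116.0 and 147.2 CPM). RHOB read 14.6, 14.0 and 13.8 CPM at 0 h and 18.4, 21.2 and 25.9 CPM at 2 h. The lower members were JUN, ZFP36L1, BHLHE40, BTG2 and PLK3. FOS, the partner of JUN in AP-1, was low at both times, with 2.06, 1.62 and 2.38 CPM at 0 h and 2.45, 4.29 and 2.04 CPM at 2 h.

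After removal of the GC trend, 9 of the 54 immediate early genes were higher at an unadjusted p under 0.05, against 1.92% of all genes, and 5 were lower, against 2.21%, with a median of 0.19. This fit added CSRNP1, an early induced nuclear protein, whose levels were 14.0, 24.3 and 24.9 CPM at 0 h and 37.7, 30.0 and 27.2 CPM at 2 h. Its log2 fold change was 0.58 as measured and 0.92 with the trend removed. IER5, a regulator of heat shock factor, went from 0.30 to 0.41, EGR3 from 0.87 to 1.03 at levels of 0.502 to 1.79 CPM, and AMOTL2, an angiomotin that binds YAP, from 0.24 to 0.54. These 4 genes and the others named from that fit were chosen after its values were seen, and 0 genes passed the FDR in it by edgeR, with 583 at an unadjusted p under 0.05.

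**Figure D2:**
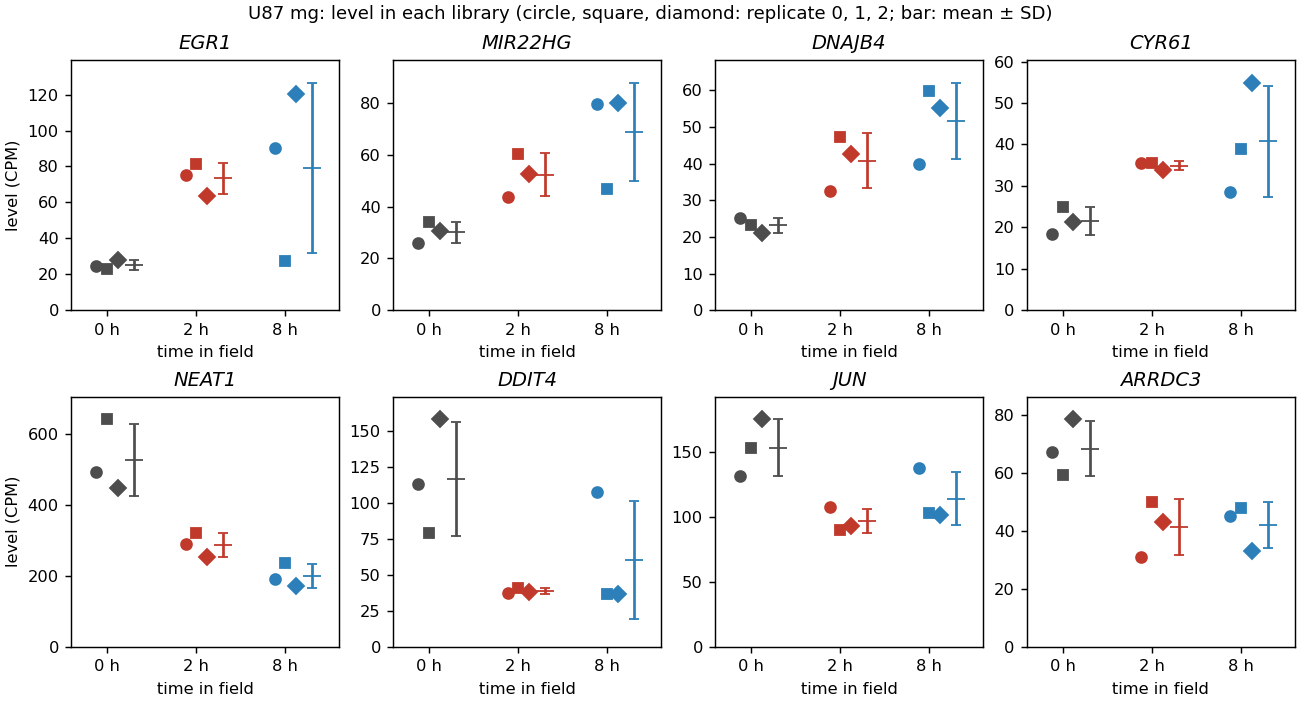
Levels (CPM) of 8 genes in each of the 9 U87 mg libraries by hours in the field. The marker gives the replicate number, by which libraries were not paired here, and the bars are the mean ± SD of 3 libraries. EGR1, MIR22HG, DNAJB4 and CYR61 were higher in every library at 2 h than at 0 h, and NEAT1, DDIT4, JUN and ARRDC3 lower. This separation was a condition for naming these genes, and among all genes tested it held for 8.77% (higher) and 5.03% (lower).

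Among the target genes of YAP and TAZ, CYR61 (also known as CCN1), a secreted matricellular protein, had 18.4, 24.9 and 21.2 CPM at 0 h and 35.5, 35.5 and 33.8 CPM at 2 h. The groups were separate, and the log2 fold change was 0.70 ± 0.21 (SE) as measured and 0.81 with the GC trend removed. CTGF, a paralog of CYR61 in the CCN family, read 13.5, 26.8 and 25.9 CPM at 0 h and 22.9, 38.7 and 39.6 CPM at 2 h, and its groups overlapped. LATS2, the kinase that inhibits YAP and is induced by it, had means of 20.2 ± 1.46 and 25.8 ± 2.76 CPM (SD, n = 3). In all, 27 of 28 listed targets were tested, 2 were higher and 0 lower at an unadjusted p under 0.05, against 4.96% and 4.2% of all genes, and the median log2 fold change was 0.13. With the GC trend removed, 5 were higher and 1, ANKRD1, was lower, against 1.92% and 2.21% of all genes. ANKRD1 is a muscle ankyrin repeat protein and a usual reporter of YAP activity, and at 0.199 to 1.57 CPM it was close to the 0.36 CPM that 3 counts make in the shallowest library at 2 h. NUAK2, a kinase that acts on myosin phosphatase, read 1.31 to 2.02 CPM at 0 h and 1.79 to 2.36 CPM at 2 h.

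DNAJB4 (chr1:77979175-78017964), a cochaperone of HSP70, read 25.2, 23.3 and 21.1 CPM at 0 h and 32.5, 47.2 and 42.8 CPM at 2 h. Its log2 fold change was 0.82 ± 0.19 (SE) as measured and 0.52 with the GC trend removed, its transcripts having a GC content of 35.3%. DNAJB1, the main cochaperone of the stress response, read 144.9, 136.4 and 138.3 CPM and then 151.4, 211.8 and 142.0 CPM, so that replicate 1 at 2 h stood above the other two. The same library was high in HSPA1B, an inducible HSP70, with 131.1 CPM beside 42.0 and 45.2 CPM in the other 2 h libraries and 36.3 to 54.7 CPM at 0 h, and without it the log2 fold change of HSPA1B was -0.13 in place of 0.62. HSPA1B is a near-identical copy of HSPA1A, and how reads were divided between them is uncertain. Of 31 heat shock and chaperone genes tested, 4 were higher and 0 lower at an unadjusted p under 0.05, against 4.96% and 4.2% of all genes, and the median log2 fold change was 0.09. The others were HSPA4L, CACYBP and HSPA13, at log2 fold changes of 0.34 to 0.38. With the GC trend removed, 5 members of this list were higher and 0 lower, against 1.92% and 2.21% of all genes, with a median of 0.02.

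The name DNAJC25-GNG10 stands for a read-through transcript that joins a DNAJ gene to its neighbor, a G protein gamma subunit. It read 44.3, 31.2 and 39.0 CPM at 0 h and 69.9, 74.8 and 91.5 CPM at 2 h, a log2 fold change of 1.04 ± 0.22 (SE). DESeq2 gave it an adjusted p of 0.0178, in a range of 0.000172 to 0.886 over 24 alternatives. DNAJC25 alone had a log2 fold change of 0.59 and GNG10 alone -0.11, and since the read-through shares exons with each of them, the division of reads among the 3 names is uncertain.

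Further genes with separate groups were signaling adaptors and nuclear proteins. FRS2, the docking protein of fibroblast growth factor and neurotrophin receptors, measured 51.93, 50.05 and 46.87 CPM at 0 h and 67.1, 80.7 and 75.6 CPM at 2 h. ARID5B, a chromatin factor that recruits a histone demethylase, had means of 58.5 ± 8.27 and 98.8 ± 12.6 CPM (SD, n = 3). RBBP6, a ubiquitin ligase that also takes part in 3′ end formation of messages, had 89.3 ± 5.12 and 134.3 ± 11.2 CPM. LRIF1, a nuclear protein of the inactive X chromosome and of silenced repeats, had 39.95 ± 5.04 and 60.3 ± 5.1 CPM. The ubiquitin ligase adaptor KLHL15, the vesicle protein CHIC2 and N4BP2 had log2 fold changes of 0.58 to 0.75. ABL2, the cytoplasmic tyrosine kinase that shapes actin protrusions, was not within the rule because of its size of 0.51, but it had an unadjusted p of 0.000788 by edgeR and was picked after its values were seen. It read 195.9, 180.7 and 181.2 CPM at 0 h and 244.7, 274.4 and 276.8 CPM at 2 h, and the spread within each group was small beside the difference. PAX3, a neural crest transcription factor also picked afterwards, had 4.46 ± 0.58 and 6.65 ± 0.29 CPM (SD, n = 3). The rows with clone-based names, AC096772 and RP11-318M2, completed the 15 higher genes at mean levels under 10 CPM, and such names may join several genes.

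Among lower genes, the nuclear long non-coding RNA NEAT1 (chr11:65422774-65445540), the scaffold of paraspeckles, had the lowest p of the 30. It read 494.0, 641.2 and 447.4 CPM at 0 h and 288.9, 320.8 and 253.2 CPM at 2 h, a log2 fold change of -0.88 ± 0.16 (SE). DESeq2 gave NEAT1 an adjusted p of 0.0044, and the range over 24 alternatives was 0.000299 to 0.886. All 3 listed NEAT1 transcripts with a mean of at least 1 TPM were lower. The long form ENST00000501122, which spans the whole locus and builds paraspeckles, had means of 21.9 ± 4.74 and 12.8 ± 1.18 TPM (SD, n = 3), while the short spliced form ENST00000499732 had 148.7 ± 34.9 and 69.3 ± 14.8 TPM. These forms overlap, and their reads were divided among them. MALAT1, the neighboring nuclear RNA of splicing speckles, read 238.0, 213.2 and 166.4 CPM at 0 h and 173.5, 156.1 and 123.1 CPM at 2 h, with overlap. MEG3, an imprinted non-coding RNA, had 23.1 ± 4.09 and 14.6 ± 1.94 CPM. Of 35 nuclear long non-coding RNAs and snoRNA hosts tested, 4 were lower and 1, MIR22HG, was higher at an unadjusted p under 0.05, against 4.2% and 4.96% of all genes, the fourth lower gene being the snoRNA host DANCR. Poly-A selection, used for all libraries, captures such RNAs only in part. With the GC trend removed, 5 members of this list were lower and 1 higher, against 2.21% and 1.92% of all genes.

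DDIT4 (chr10:72273920-72276036), the stress-induced inhibitor of mTORC1, showed the largest difference among the 15 lower genes. It read 113.5, 79.0 and 158.1 CPM at 0 h and 37.2, 41.1 and 38.2 CPM at 2 h. The 0 h libraries were widely spread and the 2 h libraries nearly equal, with means of 116.9 ± 39.7 and 38.8 ± 2.02 CPM (SD, n = 3). The log2 fold change was -1.59 ± 0.37 (SE), or 3.02-fold lower, and -1.32 with the GC trend removed. Its adjusted p by edgeR was 0.0391 without replicate 0 at 0 h, in a range of 0.0391 to 0.999 over 24 alternatives. At 8 h replicate 0 read 107.6 CPM and replicates 1 and 2 read 36.4 and 37.0 CPM.

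DDIT4 is induced by hypoxia, by glucocorticoids and by FOXO factors, and the other genes of such programs are given beside it. BHLHE40, a hypoxia-induced repressor, read 205.2, 173.4 and 266.7 CPM at 0 h and 132.9, 114.1 and 101.5 CPM at 2 h, a log2 fold change of -0.89. ARRDC3, an arrestin induced by FOXO and MondoA, read 67.4, 59.5 and 78.6 CPM and then 30.93, 50.03 and 43.01 CPM, with a log2 fold change of -0.733 as measured and -0.999 with the GC trend removed. TXNIP, its thioredoxin-binding relative and the main target of MondoA, read 251.0, 269.3 and 295.7 CPM and then 199.3, 190.0 and 291.4 CPM, and its groups overlapped through replicate 2 at 2 h. Of 42 hypoxia genes tested, 3 were lower and 1, RORA, was higher at an unadjusted p under 0.05, against 4.2% and 4.96% of all genes, and the median log2 fold change was -0.00. For 34 targets of FOXO and MondoA the count was 2 lower, ARRDC3 and DDIT4, and 2 higher, YPEL5 and RICTOR, beside the same shares of all genes, with a median of 0.03. With the GC trend removed, each of these lists had 3 lower and 0 higher, against 2.21% and 1.92% of all genes.

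JUN (chr1:58780788-58784327), the AP-1 subunit, was lower at 2 h while EGR1 was higher. It read 131.6, 153.2 and 175.2 CPM at 0 h and 107.4, 90.0 and 93.2 CPM at 2 h, a log2 fold change of -0.66 ± 0.15 (SE) as measured and -0.38 with the GC trend removed. ZFP36L1, which promotes decay of messages with AU-rich elements, read 300.5, 230.8 and 307.1 CPM and then 198.5, 196.6 and 200.7 CPM. BTG2, an antiproliferative target of p53, had 4.01 ± 0.87 and 1.98 ± 0.32 CPM (SD, n = 3). TGIF1, a corepressor that limits TGF-beta signaling, read 70.3, 38.9 and 48.4 CPM at 0 h and 32.6, 29.6 and 28.1 CPM at 2 h. Its highest value came from replicate 0 at 0 h, and without that library the log2 fold change went from -0.80 to -0.54. SNAI2, a mesenchymal repressor of the SNAIL family, had a log2 fold change of -0.38 with overlapping groups. Of 27 TGF-beta feedback and target genes, 0 were higher and 3 lower at an unadjusted p under 0.05, against 4.96% and 4.2% of all genes, the third being TGFB1 itself. With the GC trend removed, 0 members of this list were higher and 2 lower, against 1.92% and 2.21% of all genes. The remaining lower genes of the 30 were KRTCAP2, a subunit of oligosaccharyltransferase, the palmitoyltransferase ZDHHC16, CDK5RAP3, the peptide transporter TAP1, WBP1, MIR34AHG, the host of miR-34a, and NPIPB3, a member of a multigene family whose counts are uncertain, at log2 fold changes of -0.97 to -0.60. Clone-based rows RP11-66B24 and AP003419 had log2 fold changes of -1.07 and -1.36.

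ENSAP2, a processed pseudogene picked after its values were seen, had the smallest adjusted p of all genes (0.206 by edgeR). Its counts were 36, 35 and 44 at 0 h, 0 in all 3 libraries at 2 h, and 24, 5 and 8 at 8 h. Against 3 counts in the shallowest 2 h library, which make 0.36 CPM, it was at least 8.3-fold lower. A pseudogene shares sequence with its parent gene, so its reads may have been assigned from there, and this was not tested.

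The genes of signaling pathways linked with electrotaxis are given by list. Of 17 ErbB receptors, ligands and adaptors tested, 1, ERBB2IP, was higher and 0 were lower at an unadjusted p under 0.05, and EGFR itself read 255.7, 253.4 and 275.8 CPM at 0 h and 266.9, 287.5 and 289.9 CPM at 2 h. Among 46 genes of the PI3K, AKT and mTOR pathway, 3 were higher (RICTOR, PIK3C2A and GSK3B, at log2 fold changes of 0.26 to 0.38) and 1, DDIT4, was lower. Of 41 ERK feedback and target genes, SPRED1, an inhibitor of RAF activation, was higher at 0.31 and DUSP4, an ERK phosphatase, lower at -0.47. The 78 motility genes of the study's array that were tested gave 3 higher and 3 lower, namely RHOB, ROCK1 and ACTR2 against TGFB1, PFN1 and CFL1. Among 43 ion pumps and channels there were 1 higher and 1 lower, SCN9A and CLIC1. Matrix and integrin genes, 42 in number, had 0 in either direction, with a median of -0.12 and 29 members below 0. All these counts stand beside 4.96% higher and 4.2% lower among all genes. With the GC trend removed, the ErbB list and the motility genes each had 1 higher and 0 lower. The PI3K, AKT and mTOR pathway had 1 higher and 1 lower. ERK genes, ion pumps and channels, and matrix and integrin genes had 0 in either direction. The shares of all genes in that fit were 1.92% higher and 2.21% lower.

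Cytosolic ribosomal protein genes lay mostly below 0. Of 78 tested, 65 had a negative and 13 a positive log2 fold change, 9 were lower and 0 higher at an unadjusted p under 0.05, and the median was -0.24. Among all 14106 genes, 7349 had a negative and 6756 a positive value, and the median was -0.02. At that p, 4.2% of all genes were lower and 4.96% higher. RPS14, for example, read 162.5, 208.4 and 191.6 CPM at 0 h and 153.9, 133.0 and 122.5 CPM at 2 h. With the GC trend removed the median was -0.07, and 9 were lower and 0 higher, against 2.21% and 1.92% of all genes. Summed over the list, 0 h libraries held 26640 to 27410 CPM and 2 h libraries 27190, 24180 and 22860 CPM, so replicate 0 at 2 h lay within the 0 h range. For the 15 genes of the mitochondrial genome the median was -0.25 and 14 were below 0, 0 of them at an unadjusted p under 0.05, and their sum in replicate 0 at 2 h, 41740 CPM, lay within the 40050 to 51040 CPM of the 0 h libraries. For 5 of these genes all 2 h libraries lay below all 0 h libraries, and for 0 above, against 5.03% and 8.77% of all genes. With the GC trend removed their median was -0.34, and 1 was lower and 0 higher, against 2.21% and 1.92% of all genes.

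The remaining lists had members on both sides at an unadjusted p under 0.05, and their counts stand beside 4.96% higher and 4.2% lower among all genes. Splicing factors and CLK kinases (40 tested) had 4 higher and 1 lower, with CLK1 at 0.44 and CLK2 at -0.59. Genes of the integrated and unfolded protein stress responses (39 tested) had 4 higher and 1 lower, with DNAJB9, an endoplasmic reticulum cochaperone, at 0.64 and CALR, a chaperone of the same compartment, at -0.37. The p53 targets (31 tested) had 3 higher and 4 lower, with PMAIP1 at 0.47 and XPC at -0.48. Circadian clock genes (22 tested) had 3 higher and 4 lower, cholesterol and fatty acid synthesis (39 tested) 3 and 1, NF-kB, chemokine and cytokine genes (50 tested) 1 and 2, and DNA replication and mitosis (43 tested) 1 and 1, which were CDK1 and UBE2C. With the GC trend removed, splicing factors and CLK kinases had 1 higher and 4 lower, with a median of -0.04. Higher and lower members were 2 and 0 for the stress responses, 0 and 2 for p53 targets and 0 and 1 for clock genes. Cholesterol and fatty acid synthesis and DNA replication and mitosis had 0 in either direction. NF-kB, chemokine and cytokine genes had 1 higher and 0 lower. These counts stand beside 1.92% higher and 2.21% lower among all genes.

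**Figure D3:**
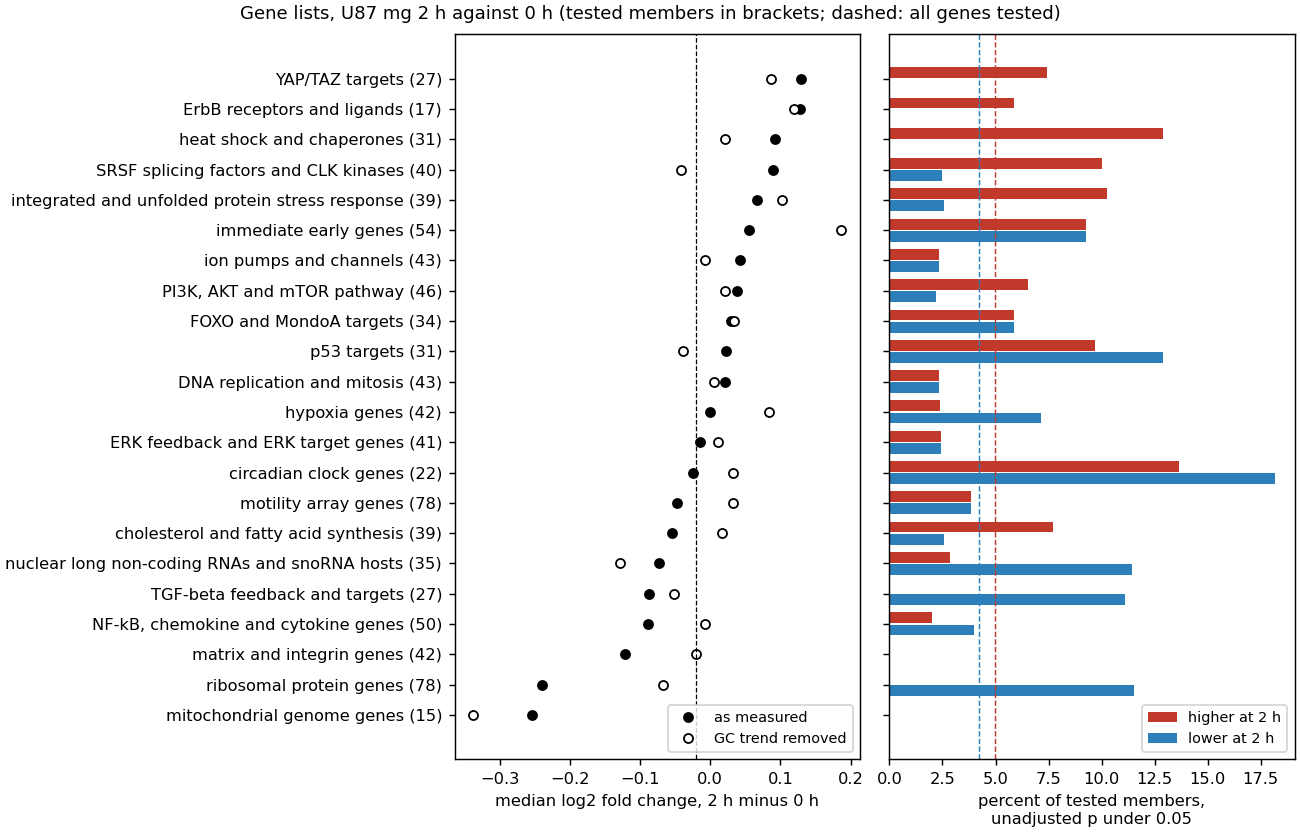
Left, the median log2 fold change (2 h minus 0 h) of each of 22 gene lists as measured (filled) and with the GC trend removed (open). Right, the percentage of tested members at an unadjusted p under 0.05 in each direction; dashed lines are the values of all genes tested. Ribosomal and mitochondrial genes had the lowest medians as measured, -0.24 and -0.25, and 0 lists exceeded 0.2.

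The differences as measured followed the base composition of the genes. Among genes with a mean of at least 5 CPM, the median log2 fold change was 0.26 for the 1790 with a GC content under 40%, -0.00 for the 2016 between 45% and 50%, and -0.40 for the 1007 above 60%. The 700 genes higher at an unadjusted p under 0.05 had a median GC content of 39.0% and the 593 lower ones 55.4%, against 47.3% for all. EGR1 (55.4%), RHOB (57.3%) and CSRNP1 (58.6%) were higher, and ARRDC3 (37.7%) and MALAT1 (39.6%) lower, on the opposite side of that trend, and their differences were larger with the trend removed. Removal of a trend enlarges differences that run against it, so this outcome was set by the side on which these genes lay. PFN1 and CFL1, abundant actin regulators with GC contents of 58.3% and 58.7%, had log2 fold changes of -0.48 and -0.48 as measured and -0.15 and -0.14 with it removed. All 30 named genes had an unadjusted p under 0.05 with the trend removed, against 1.92% higher and 2.21% lower among all genes. They were picked by p in the same libraries, so this is no separate check.

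Without replicate 0 at 0 h, 1305 of 14487 genes passed an FDR below 0.05, 414 higher (2.86%) and 891 lower (6.15%), and 80 of them also reached a log2 fold change of 1 either way, 13 higher and 67 lower. Of the 30 named genes 25 were among those at an FDR below 0.05. The 30 were picked by p in a fit that includes all the libraries of this one, so this count is no separate check. The higher of these 1305 genes had a median GC content of 38.7% and the lower ones 60.1%. With the same library left out and the GC trend removed, 0 genes passed by edgeR, 925 had an unadjusted p under 0.05, and the smallest adjusted p was 0.205. Counts of list members in the fit without this library differed from those with all libraries. At an FDR below 0.05, 11 of 78 motility genes were lower and 2 higher, 9 of 39 genes of cholesterol and fatty acid synthesis lower and 0 higher, and 7 of 42 matrix and integrin genes lower and 0 higher, against 6.15% and 2.86% of all genes. Ribosomal protein genes had 8 lower and 1 higher of 78, the PI3K, AKT and mTOR pathway 6 and 2 of 46, DNA replication and mitosis 5 and 0 of 43, and heat shock and chaperone genes 3 and 4 of 32. Of 54 immediate early genes, 3 were lower and 2 higher, and of 27 targets of YAP and TAZ 1 was lower and 0 were higher. Each of the other 13 lists had at most 4 members in either direction. COL1A1, a fibrillar collagen chain with a GC content of 61.1%, shows the split at 0 h, with 55.9 CPM in replicate 0 beside 258.4 and 221.9 CPM, and with 62.8, 146.7 and 106.1 CPM at 2 h. Its log2 fold change was -0.77 with all libraries, -1.19 without replicate 0 at 0 h and -0.27 with the GC trend removed. The part of this library and of GC content in each gene's difference was not tested beyond these values.

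**Figure D4:**
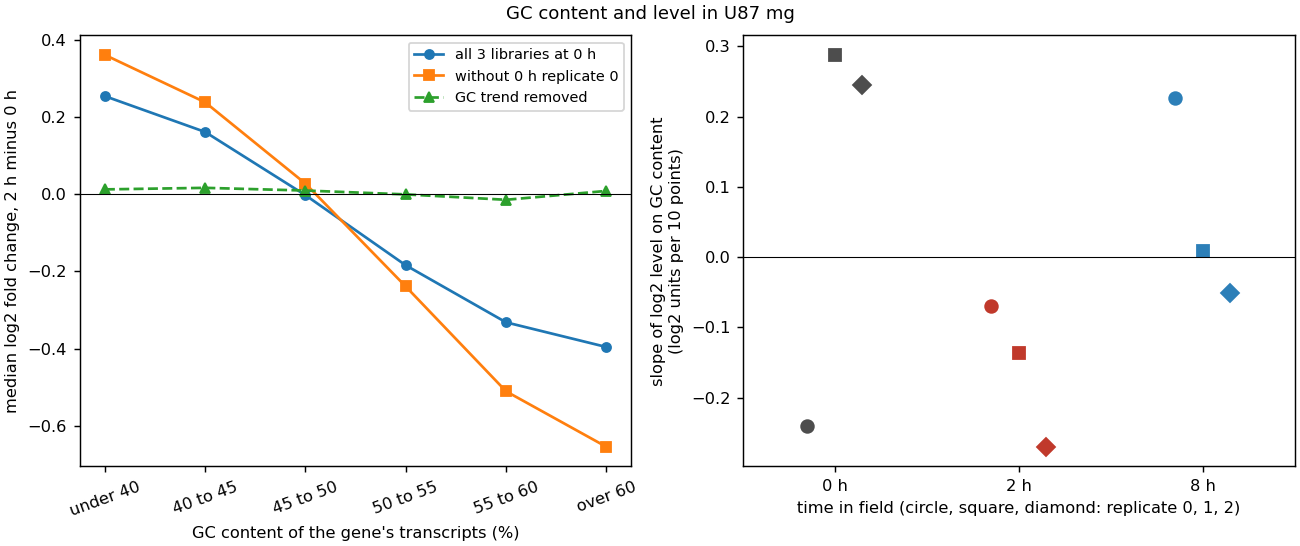
Left, the median log2 fold change (2 h minus 0 h) of genes with a mean of at least 5 CPM, in 6 classes of GC content, with all libraries, without replicate 0 at 0 h and with the GC trend removed. Right, the slope on GC content of the log2 level minus the gene's mean over the 9 U87 mg libraries, in each library (log2 units per 10 points). Replicate 0 at 0 h (-0.24) lies with the 2 h libraries and not with replicates 1 and 2 at 0 h.

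Single transcripts varied far more between libraries than gene sums, with a biological coefficient of variation of 0.76 beside 0.18. Of 40613 transcripts tested, 0 passed both criteria by edgeR (0.0%), with 1422 higher (3.5%) and 1539 lower (3.79%) at an unadjusted p under 0.05. By DESeq2, 290 had an adjusted p below 0.05 (0.714%). Several transcripts with the lowest p-values belonged to genes whose sums differed far less. ENST00000476377, a processed transcript of SPG20, the gene of the endosomal protein spartin, was listed at 0 in all 0 h libraries and read 23.1, 28.5 and 29.2 TPM at 2 h, while the gene sum had a log2 fold change of 0.12. ENST00000418033 of ARHGAP21, which encodes a GTPase-activating protein, read 4.26, 4.08 and 3.76 TPM and then 22.7, 22.4 and 19.2 TPM, with 0.16 for the gene sum. In the other direction, ENST00000540793 of ATF7IP, a cofactor of H3K9 methylation, read 6.18, 5.89 and 2.15 TPM at 0 h and at most 0.146 TPM at 2 h, with 0.37 for the gene sum, and ENST00000615667 of YAP1 read 6.52, 3.02 and 1.23 TPM and then at most 0.174 TPM, with 0.18 for the gene sum. Each of these 4 transcripts had an adjusted p of 0.435 by edgeR, and by DESeq2 the values lay between 1.36e-08 and 0.00587, and the highest over 10 alternatives was 0.904. Such values depend on how reads from shared exons were assigned. Among transcript types, 4224 retained-intron transcripts had 2.72% higher and 5.14% lower and a median of -0.14, and their share of all counts was 2.83% to 2.98% at 0 h and 2.72% to 2.84% at 2 h.

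Levels at 8 h are set beside those at 2 h. The comparisons share libraries, so each is given with its own values only. NEAT1 read 192.4, 236.7 and 170.7 CPM at 8 h, all below the 2 h libraries, and its log2 fold change from 0 h to 8 h was -1.40 (adjusted p = 0.00653 by edgeR, in a comparison where 1.77% of genes passed). MIR22HG, at 79.5, 46.9 and 80.1 CPM, was 1.19 log2 units above 0 h (adjusted p = 0.0209), GEM 0.86 above (adjusted p = 0.0209), DNAJB4 1.16 above (adjusted p = 0.0168) and EGR1 1.66 above (adjusted p = 0.0449). Between 8 h and 2 h, 106 of 14106 genes passed an FDR below 0.05 (0.751%), and of the 30 named genes 1 did. That was MEG3, which rose from 14.6 ± 1.94 to 29.7 ± 3.35 CPM (SD, n = 3; log2 fold change 1.02, adjusted p = 0.0361 by edgeR). This comparison depended on single libraries, and 0 genes passed it when any 1 of the 2 h libraries or replicate 2 at 8 h was left out. DDIT4, JUN and TGIF1 had mean levels at 8 h between those at 2 h and 0 h, and ARRDC3, with 42.1 CPM, had nearly its 2 h mean.

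DAOY, the medulloblastoma line of the series, had its own 2 h and 0 h libraries. The difference between the 2 h changes of both lines was significant for 0 of 16482 genes (0.0%) at an FDR below 0.05 by edgeR, and 1053 (6.39%) had an unadjusted p under 0.05, among them 11 of the 30 named genes. The 30 were picked by the U87 mg change, which is part of this difference, so the 11 cannot be read against that share. Of these 30, 17 had the same sign in DAOY. The share of all genes with the same sign was not computed, so this count only describes the 30. EGR1 had a log2 fold change of 0.76 in DAOY beside 1.55 in U87 mg, CYR61 1.31 beside 0.70, NEAT1 -0.81 beside -0.88 and JUN -0.44 beside -0.66, with unadjusted p-values of 0.117 to 0.847 by edgeR for the difference between lines. DDIT4 had -0.03 in DAOY beside -1.59 (unadjusted p = 0.0275 for the difference), TGIF1 0.15 beside -0.80 (unadjusted p = 0.00536) and DNAJC25-GNG10 -0.38 beside 1.04 (unadjusted p = 0.00451), each with an adjusted p of 0.629 or above.

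**Figure D5:**
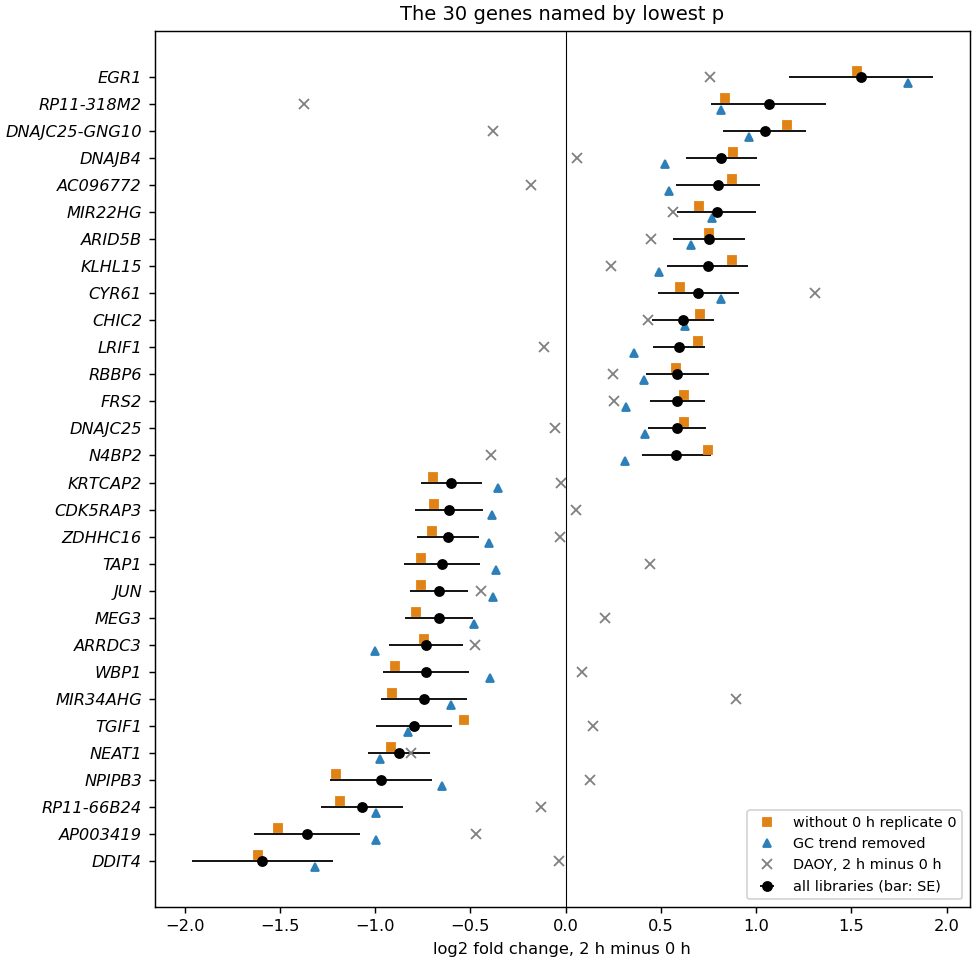
Log2 fold change (2 h minus 0 h) of the 30 genes named by lowest p, with all U87 mg libraries (circles, bars give the SE), without replicate 0 at 0 h (squares), with the GC trend removed (triangles), and in DAOY (crosses). All U87 mg estimates of a gene lie on the same side of 0, and 17 of the 30 DAOY values lie on that side too. The 30 were picked for separate groups in the same U87 mg libraries, so the agreement within U87 mg was largely set by that rule. The share of all genes with the same sign in DAOY was not computed.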

How the data were processed

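RNA was poly-A selected, made into stranded libraries and sequenced as single-end reads. The authors quantified transcripts with kallisto 0.43.0 on GENCODE 24 (GRCh38) and deposited estimated counts and TPM for 145326 transcripts in each library, of which 87.8% of the nonzero counts are not whole. The deposited table also holds fold changes, p-values and q-values from sleuth 0.28.1, which were not used. Whether kallisto used strand is not given in the sources used here.

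Estimated counts were rounded and summed by gene name. Names that stand for clones (10.74% of transcripts) may join several genes. Genes were tested with edgeR 4.0.16 (TMM, filterByExpr, quasi-likelihood) over all 9 U87 mg libraries, with calls made where the FDR was under 0.05 and the log2 fold change was 1 or more in either direction. Alternatives used DESeq2 1.42.0, limma 3.58.1 on log2(TPM + pseudocount 1 or 0.1), other filters and scalings, fits without each library, and, added after the data were seen, removal of each library's trend with GC content. The scripts were tested on simulated data. GC content and positions came from GENCODE 29, which held 99.2% of the transcripts. Totals per library ran from 8341976 to 15610886 counts at 0 h and 2 h, so 3 counts made 0.192 to 0.36 CPM, and such floors cover counting error only. The genes named were the 15 per direction with the lowest p under the conditions given in the text, list members at an unadjusted p under 0.05, 4 genes of an earlier account (EGR1, DDIT4, MIR22HG and NEAT1), and those said to be chosen after their values were seen. Members and lists were chosen with earlier results of these data known.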

Additional observations from a re-analysis of the deposited data

How the results depend on the processing

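The count of differentially expressed genes at 2 h, 0 as reported, was 3 with DESeq2, 1 with limma at either pseudocount (1 and 1), 1 without a filter on low counts and 1 with only the 6 samples compared. It ranged from 0 to 80 when single libraries were left out, the 80 coming from the fit without replicate 0 at 0 h, while the fit without replicate 1 at 8 h gave 1. By DESeq2 without replicate 0 at 0 h it was 68, and with that library left out and the GC trend removed it was 0. The transcript count, 0 as reported, was 235 with DESeq2 and 0 to 2 without single libraries. The count of genes whose change differs between lines, 0 as reported, was 2 with DESeq2. The count between 8 h and 2 h, 106 as reported, was 575 with DESeq2, 659 with the GC trend removed, 42 with the replicate number as a block, and 0 to 845 without single libraries. The cause was not tested.

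Of 2848 log2 fold changes of 119 genes under 24 alternatives, 2819 kept their direction and their side of the threshold, 24 passed it and 5 turned. The last were CDK1 (-0.034) and LIFR (-0.031) without replicate 0 at 0 h and with the GC trend removed, GNG10 by DESeq2 without replicate 0 at 0 h (0.009), and 2 that turned when a 2 h library was left out. The 119 genes were picked mainly by their p or after their values were seen, and the alternatives refit largely the same libraries. A kept direction was therefore largely set by the choice of genes. As 0 genes were called in the main fit, a kept side of the threshold means that a gene was still not called. Over the fits that each left out 1 library, GNG10 ranged from -0.223 to 0.015 and HSPA1B from -0.127 to 0.894. Deviations of libraries with the same number had correlations of -0.089, 0.214 and -0.039, within the -0.251 to 0.22 of libraries with different numbers. The libraries were therefore not paired by number, though 3 libraries per group cannot exclude a pairing. With the replicate block, 0 genes were called at 2 h, 0 transcripts and 0 genes between lines.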
